A study of Homo sapiens with 16 samples.

Results

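ZNF genes encode the largest class of human transcription factors, the C2H2 zinc finger proteins. The genes described here are the protein-coding genes of GENCODE whose symbol is ZNF followed by a number, with or without a final letter, on any autosome other than chromosome 19, which holds the densest arrays of this family. There were 250 such genes among 60107 genes in the count files, and 246 genes with the same kind of symbol on chromosome 19 served for comparison. The rule itself reads symbols and positions, not measured values. In each finger of these proteins a zinc ion held by cysteine and histidine side chains folds a short loop that reads a few bases of DNA, and a conserved linker joins one finger to the next. Many members also carry a KRAB domain, which recruits the corepressor TRIM28 and, through it, enzymes that lay down repressive histone marks, often over mobile elements. Others work as activators, join chromatin complexes or bind RNA and ribosomes.

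The samples came from U2OS-TR, a human osteosarcoma line that carries the tet repressor. One clonal derivative held a tetracycline-regulated transgene for ΔN-RNMT, an inactive form of the cap methyltransferase RNMT that is kept in the cytoplasm and drives no methylation of RNA caps. It was grown without doxycycline (Control, n = 5) or with it for 24 h after 48 h of growth (Induced, n = 5). Parental U2OS-TR cells without the transgene were grown without (No Dox, n = 3) or with doxycycline (With Dox, n = 3). Cytoplasmic polyadenylated RNA was read as 1 tag at the 3′ end of each transcript, so that tag counts do not scale with transcript length. The question was which transcripts change when cap methylation in the cytoplasm is blocked, with the parental cells as the check for doxycycline itself. All the transgene results rest on 1 clone. The label of every sample, untreated ones included, lists doxycycline at 1 µg/ml, while the methods give it for induced cells alone. Levels are given as TMM-scaled CPM, the tags of a gene relative to its library's total after that total was rescaled by edgeR's TMM factor. They are thus not plain shares of a library's tags. In bulk samples, fewer cells with a transcript and less of it per cell cannot be told apart.

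The conserved C2H2 linker between fingers was searched for by its codons, with the last base of each full codon left free, in frame and on the coding strand of the coding sequence alone. A free last base also admits other amino acids at some positions, such as aspartate (GAC) in ZNF680 below, so close variants count as the linker. A linker of this form was present in 146 of 250 members (58.4%), in 208 of 246 ZNF genes on chromosome 19 and in 458 of 20046 protein-coding genes (2.28%). The 6 sequences below are the first such linker of each of 3 members that were higher and 3 that were lower in Induced cells, with the linker in capitals and 5 bases on each side. They were chosen after the values were seen, from the members with the largest called changes that have this linker. The search fixes all linker bases but the free ones, so their likeness follows from the search. All lie in coding exons of GRCh38.
ZNF680 (chr7:64521868-64521894, minus strand, higher): ttcatACTGGAGACAAACCTTAcaaat
ZNF25 (chr10:37952720-37952746, minus strand, higher): cacacACAGGGGAGAAACCCTAtgagt
ZNF143 (chr11:9497702-9497728, plus strand, higher): ctcatACAGGAGAAAAGCCATAtcggt
ZNF892 (chr2:95214759-95214785, plus strand, lower): ttcacACAGGAGAAAAACCCTAtgaat
ZNF79 (chr9:127444341-127444367, plus strand, lower): gccacACTGGAGAGAAGCCCTAtgagt
ZNF205 (chr16:3119646-3119672, plus strand, lower): cgcacACGGGCGAGAAGCCCTAcgcct
Of the 17 linker bases, 7 are G or C in ZNF680, ZNF143 and ZNF892, 9 in ZNF25 and ZNF79, and 11 in ZNF205. Only the free bases can differ here, so these counts do not give the range of base composition of the genes. Near-identical linkers do not by themselves make tags ambiguous, since the tags come from the 3′ end. Only 4 tested members shared a stretch of at least 75 nt with at least 95% identity with another gene within their last 300 nt. However, exons of 100 tested members overlapped another gene on either strand, and the sources used here do not say whether the counts used strand.

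Induction was checked on RNMT, whose tags come from both the endogenous gene and the transgene where the latter shares its 3′ end. RNMT stood at 66.0, 55.5, 62.6, 74.4 and 112 CPM in Control 1 to 5 and at 278, 360, 265, 457 and 367 CPM in Induced 1 to 5. The groups did not overlap, and the log2 fold change was 2.22 (SE 0.23; edgeR adjusted p = 0.0081). Depth ran from 12527183 to 23251834 gene counts with the transgene and from 1473286 to 3214808 without it. The members together took 0.332 to 0.385% of the counts in Control and 0.366 to 0.403% in Induced libraries. Their summed TMM-scaled CPM went the other way, with overlapping ranges and means of 3864 CPM in Control and 3551 CPM in Induced libraries. The 9 markers listed for mesenchymal and osteosarcoma cells summed to 1242 to 1518 CPM in Control and 1338 to 1531 CPM in Induced libraries, and 5 blood markers to 0.055 to 0.483 CPM and 0.595 to 0.760 CPM. The 5 epithelial markers summed to 393 to 614 CPM in Control and 272 to 383 CPM in Induced libraries, without overlap. Of these, 3 were tested and 2 were lower, and with a correction for GC content 0 passed. The part of these markers in the results on ZNF genes was not tested.

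A pair of libraries stood apart from the rest of its group, and this touches nearly every value below. Control 5 and Induced 2 fitted their labels by RNMT, at 112 and 360 CPM, but were close to the opposite group for many ZNF genes. Among the 38 members called higher in Induced cells, Control 5 was the highest Control library for 34 and Induced 2 the lowest Induced library for 35. Control 5 exceeded Induced 2 for 31 of these 38. Among the 27 members called lower, Control 5 was below Induced 2 for 23. What set these libraries apart was not tested. Counts are given with all libraries and, where they lead, without this pair, whose omission was chosen after the values were seen and widens the gap between the groups by its construction.

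**Figure D1:**
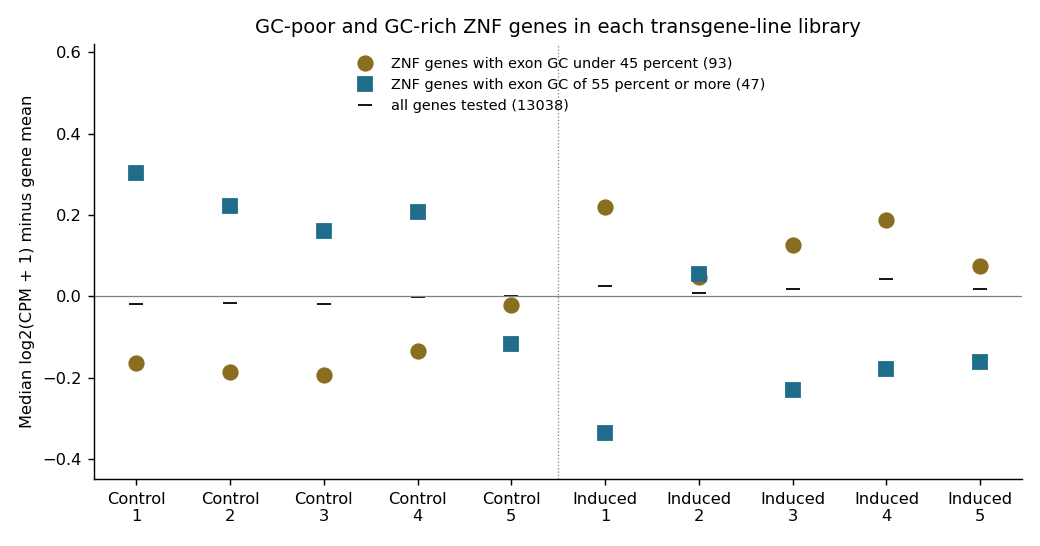
Median over genes of log2(CPM + 1) minus the gene's mean over the 10 libraries, for each transgene-line library. Circles are the 93 tested ZNF genes with exon GC content under 45%, squares the 47 with 55% or more, and dashes all 13038 genes tested. Squares lie between 0.16 and 0.30 in Control 1 to 4 and at -0.12 in Control 5, and between -0.34 and -0.16 in Induced 1, 3, 4 and 5 and at 0.05 in Induced 2.

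Of the 250 members, 199 passed the limit on low counts and were tested, and 51 were not. Among the latter, 18 had no tag in any of the 10 transgene libraries. The median level of the tested members in Control cells was 8.25 CPM, below the 14.7 CPM of all genes tested. With edgeR's quasi-likelihood test, 38 members were higher and 27 lower in Induced cells at an adjusted p below 0.05, and 134 did not pass. This was 32.7% of the tested members, against 39.8% of all 13038 genes tested. By direction, 19.1% of the members were higher, against 20% of all genes, and 13.6% lower, against 19.8%. Neither share of members called was thus larger than in the whole table. The median log2 fold change was 0.05 over the members and 0.04 over all genes. Without Control 5 and Induced 2, 65 of 197 tested members were higher (33.0%, against 33.8% of all genes) and 52 lower (26.4%, against 30.5%). All 38 and all 27 members called with the full set were called the same way without the pair. Leaving out 1 library at a time gave 8 to 63 higher and 7 to 44 lower members. The shares ran from 4 to 31.8% higher and 3.54 to 22.2% lower, against 6.99 to 31.2% and 7.14 to 27.4% of all genes. Without Control 5 there were 63 and 44. Without Control 1, 2 or 4 or Induced 1, 3, 4 or 5 there were 8 to 23 and 7 to 16, and without Control 3 there were 26 and 12. All 65 kept their sign in those 10 fits, and 15 of them passed in each, while 35 passed in 3 or fewer. With 1 surrogate variable in the model edgeR called 0 members either way, against 0.0077% of all genes higher and 0% lower. There were 25 higher and 9 lower members at an unadjusted p below 0.05, a count not made over all genes. Under scaling by total counts alone, which moves the median of all genes to 0.28, 68 members were higher (34.2%, against 30.8% of all genes) and 11 lower (5.53%, against 10.8%). Without a filter on low counts, 34 of 232 members were higher (14.7%, against 9.21% of all genes) and 20 lower (8.62%, against 8.04%). Whether the members' share lay above or below that of all genes thus depended on the setting. Changes of direction below are therefore relative to the TMM scale.

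A change of at least 2-fold was fitted for 19 of the members called higher and 9 of those called lower. The same count was not made over all genes, so whether these are many or few cannot be said. For 10 tested members (5.03%, against 7.3% of all genes tested) the 5 Control and 5 Induced libraries did not overlap. Of these, 7 were higher (3.52%, against 3.08% of all genes) and 3 lower (1.51%, against 4.22%), and 9 of them also passed the test. These 9 are described first, since their groups separate even with the pair of odd libraries included.

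ZNF281 (chr1:200404940-200410056), a factor studied in stem cells and in epithelial to mesenchymal transition, was at 15.6, 17.7, 14.7, 17.8 and 23.5 CPM in Control 1 to 5. In Induced 1 to 5 it stood at 33.2, 27.7, 30.8, 40.8 and 41.9 CPM. Every Induced library was above every Control library, and the log2 fold change was 0.96 (SE 0.18, adjusted p = 0.018, edgeR), a rise of 1.95-fold. Even here Control 5 was the highest Control and Induced 2 the lowest Induced library.

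ZNF462 (chr9:106863166-107013634), a protein with 33 recognizable fingers that is needed for heterochromatin in stem cells, was at 8.61, 11.1, 12.9, 10.8 and 18.4 CPM in Control and at 24.0, 18.4, 21.7, 25.9 and 25.8 CPM in Induced cells. The groups met at 18.4 CPM, the values of Control 5 and Induced 2, without crossing. Its log2 fold change was 0.90 (SE 0.20, adjusted p = 0.018, edgeR).

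ZNF131 (chr5:43065176-43192021), a BTB-domain transcription factor, had a narrow spread. Control libraries lay at 33.3, 28.2, 29.9, 31.3 and 34.1 CPM and Induced libraries at 50.2, 42.1, 43.99, 54.6 and 43.1 CPM. The gap between 34.1 and 42.1 CPM was wider than the whole Control range. The log2 fold change was 0.58 (SE 0.13, adjusted p = 0.018, edgeR), and it was between 0.52 and 0.61 whichever library was left out.

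The other 3 that rose without overlap were smaller or less abundant. ZNF623 moved from 4.17 ± 0.976 to 7.44 ± 1.29 CPM (SD, n = 5 each), or 0.83 on the log2 scale. ZNF407, a large nuclear protein linked to glucose uptake in fat cells, went from 1.80 ± 0.673 to 3.40 ± 0.587 CPM, or 0.92 on the log2 scale. ZNF639, also called ZASC1, went from 31.1 ± 2.17 to 41.0 ± 5.33 CPM, or 0.40 on the log2 scale, with 33.98 CPM in Control 5 and 34.4 CPM in Induced 2. The call for ZNF639 was kept in 2 of 10 fits that each left out 1 library, those without Control 5 or Induced 2. It was also lost with DESeq2's size factors in edgeR (adjusted p = 0.054), without the filter on low counts (adjusted p = 0.13) and with GC offsets, which correct each library for GC content and moved the log2 value to 0.12 (adjusted p = 0.42). ZNF407 was kept in 7 of the 10 fits.

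In the other direction, ZNF346 (chr5:177022696-177081189), also called JAZ, a protein whose fingers bind double-stranded RNA, was at 117, 123, 182, 104 and 78.2 CPM in Control 1 to 5. In Induced 1 to 5 it was at 53.7, 73.5, 52.8, 48.1 and 52.9 CPM. The groups were apart, though Control 5 and Induced 2 came within 5 CPM of each other. It fell by 1.11 on the log2 scale (SE 0.22, adjusted p = 0.018, edgeR). ZNF488, a repressor known from oligodendrocyte development, moved from 11.6 ± 2.55 to 6.22 ± 1.08 CPM (SD, n = 5 each), or -0.90 on the log2 scale. ZNF79 moved from 2.63 ± 0.401 to 1.09 ± 0.654 CPM, or -1.23 on the log2 scale (SE 0.41), and rested on 257 tags in all Control and 104 in all Induced libraries. Its value ran from -1.48 to -0.96 with 1 library left out, and the call was kept in 3 of 10 such fits, those without Control 5, Induced 2 or Induced 5. It was lost with total counts (adjusted p = 0.060) and with GC offsets (adjusted p = 0.089, both edgeR). With GC offsets ZNF488 was at -0.59 and still passed.

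**Figure D2:**
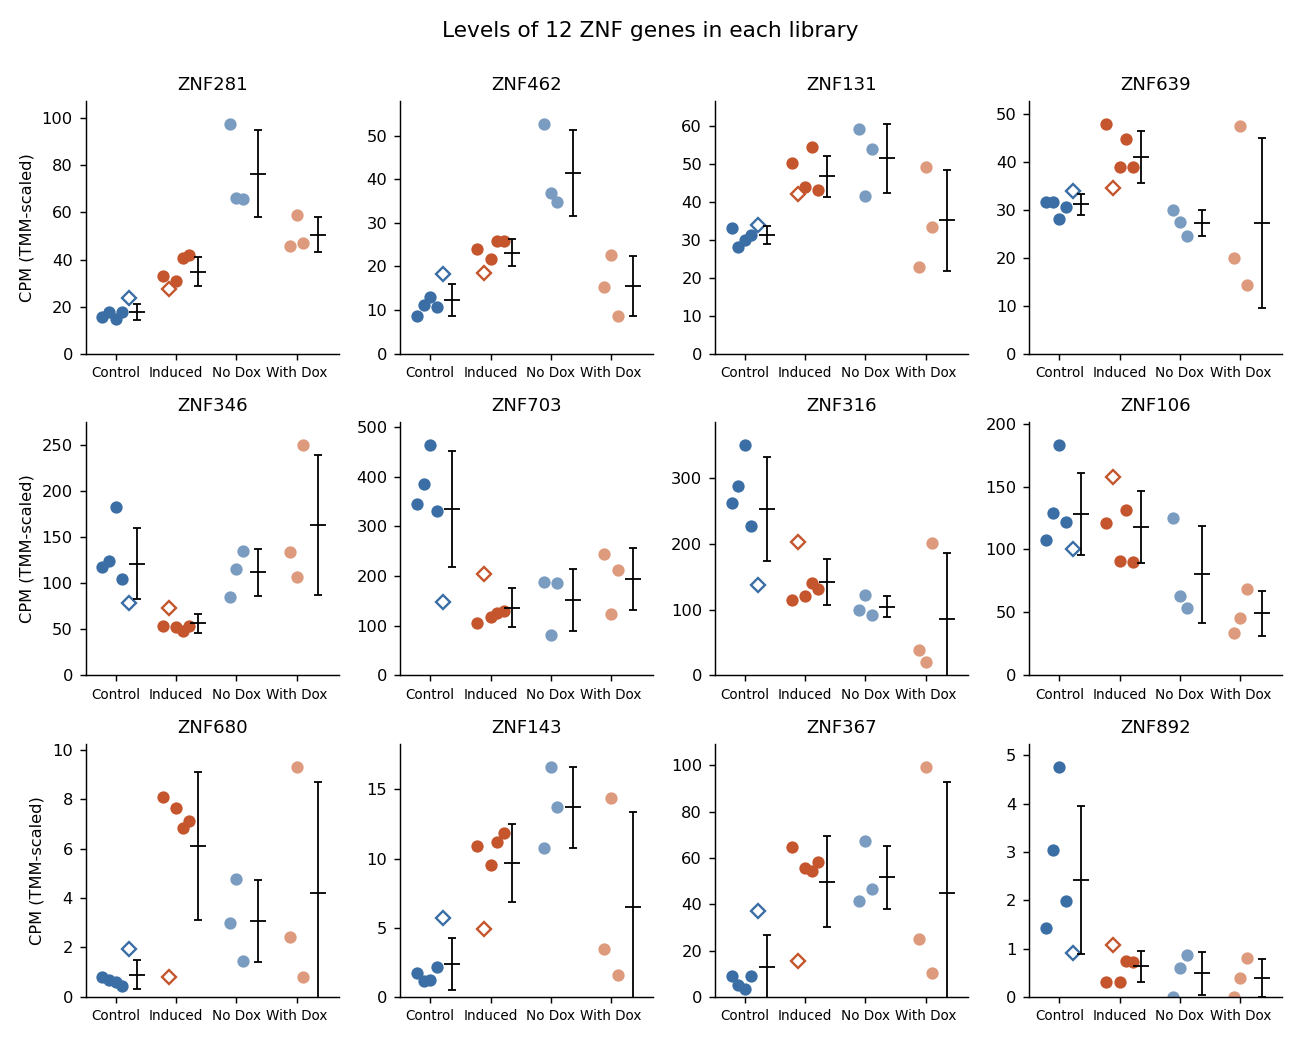
CPM of 12 ZNF genes in each library of Control and Induced cells (transgene line, n = 5 each) and No Dox and With Dox cells (parental line, n = 3 each). Points are libraries, open diamonds are Control 5 and Induced 2, and bars give the mean and SD, cut at 0. ZNF281, ZNF462, ZNF131, ZNF639 and ZNF346 separate without overlap in the transgene line, while for ZNF703, ZNF316, ZNF143, ZNF680, ZNF367 and ZNF892 the diamonds lie on the side of the other group.

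Of the 4 most abundant members, 3 were called lower on the TMM scale and 1 did not pass, and the correction for GC content reduced the differences of those 3. ZNF703 (chr8:37695782-37700019), a corepressor amplified in luminal breast cancer, had the highest mean level. It was at 346, 385, 463 and 330 CPM in Control 1 to 4 but 147 CPM in Control 5. In Induced cells it was at 106, 118, 126 and 129 CPM in libraries 1, 3, 4 and 5 but 203 CPM in Induced 2. Over all libraries it fell by 1.29 on the log2 scale (SE 0.29, adjusted p = 0.018, edgeR). With GC offsets the fall was 0.67 and passed (adjusted p = 0.031, edgeR). ZNF316 moved from 253 ± 78.8 to 142 ± 35.3 CPM (SD, n = 5 each), or -0.83 on the log2 scale, with 138 CPM in Control 5 and 203 CPM in Induced 2. With GC offsets it was at -0.28 and did not pass (adjusted p = 0.17, edgeR), and the call was kept in 5 of 10 fits that left out 1 library. ZNF106, an RNA-binding protein tied to splicing in muscle and nerve, had 128 ± 32.6 CPM in Control and 118 ± 28.6 CPM in Induced cells. Its log2 difference of -0.12 (SE 0.21) had an adjusted p of 0.66 with edgeR and was 0.13 under total-count scaling.

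Members with known roles in RNA, ribosomes and translation were called at about the rate of all genes. Of 11 on that list, all tested, 2 were higher and 2 lower (18.2% each way, against 20% and 19.8% of all genes), and 7 did not pass, with a median log2 fold change of -0.12. ZNF593, a nucleolar protein with a yeast relative in the maturation of the large ribosomal subunit, moved from 129 ± 52.0 to 61.1 ± 10.99 CPM (SD, n = 5 each), or -1.07 on the log2 scale. With GC offsets this was -0.51 and did not pass (adjusted p = 0.051, edgeR). Its gene shares exon sequence with an antisense partner, ZNF593OS, and whether the counts used strand is not given in the sources used here. ZNF598, the ubiquitin ligase that marks collided ribosomes, was at 27.0, 21.3, 19.1, 29.2 and 45.4 CPM in Control and 41.1, 38.3, 49.9, 42.1 and 60.0 CPM in Induced cells. Control 5 overlapped the Induced range, and the log2 fold change was 0.70 (SE 0.24, adjusted p = 0.036, edgeR). With GC offsets it was 1.20. ZNF706, a small protein studied in embryonic stem cells, was at 4.99 to 8.16 CPM in Control 1 to 4 and 33.2 CPM in Control 5. In Induced cells it was at 16.5 CPM in library 2 and 27.9 to 43.2 CPM in the others, for a log2 fold change of 1.44 (SE 0.49). Without the pair this value was 2.40, and with GC offsets it was 1.21 and did not pass (adjusted p = 0.064, edgeR). Of the 10 fits that left out 1 library, ZNF598 and ZNF706 passed in 2, those without Control 5 or Induced 2. ZNF207, a spindle-assembly factor, was at 69.8 ± 7.51 and 74.9 ± 4.22 CPM, a log2 difference of 0.10 that did not pass.

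Among 16 members that belong to chromatin and repressor complexes, 3 were higher (18.8%, against 20% of all genes) and 13 did not pass, with a median of 0.00. None was lower, against 19.8% of all genes, though 16 genes are few. Beside ZNF462 and ZNF131, ZNF518B, a partner of the histone methyltransferase G9a, went from 28.7 ± 7.08 to 42.7 ± 5.17 CPM (SD, n = 5 each), or 0.57 on the log2 scale. With GC offsets this was 0.26 and did not pass (adjusted p = 0.24, edgeR), nor did it without the filter on low counts (adjusted p = 0.068), and the call was kept in 3 of 10 fits that left out 1 library. ZNF592, ZNF532 and ZNF687, which work together in one such complex, had log2 differences of -0.04, 0.05 and -0.18.

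Of 14 members listed as activators or other known factors, 12 were tested, with 5 higher and 2 lower (41.7% and 16.7%, against 20% and 19.8% of all genes). ZNF384 and ZNF143 had the widest rises of these. ZNF384, a frequent fusion partner in acute lymphoblastic leukaemia, was at 3.85, 2.98, 5.55, 2.85 and 5.498 CPM in Control and at 39.96, 29.6, 14.6 and 25.7 CPM in Induced 1, 3, 4 and 5. Induced 2 was at 3.14 CPM, inside the Control range. The log2 fold change was 2.44 (SE 0.52, adjusted p = 0.018, edgeR). ZNF143, an activator of small nuclear RNA genes and many housekeeping promoters, was at 1.72, 1.17, 1.22, 2.12 and 5.67 CPM in Control. In Induced cells it was at 10.9, 4.88, 9.56, 11.2 and 11.8 CPM, a log2 fold change of 2.00 (SE 0.43, adjusted p = 0.018, edgeR). In 4 libraries of each group the levels were far apart, and in Control 5 and Induced 2 the order was turned. ZNF395, a hypoxia-induced factor, rose by 1.17 on the log2 scale, from 28.0 ± 10.7 to 63.0 ± 25.3 CPM (SD, n = 5 each). ZNF365, which guards replication forks, rose by 1.27, from 3.83 ± 3.24 to 9.35 ± 2.84 CPM. ZNF395 and ZNF365 share exon sequence with another gene on the same strand. Both calls were kept in 2 of 10 fits that left out 1 library, those without Control 5 or Induced 2, and ZNF365 did not pass with GC offsets (adjusted p = 0.072, edgeR). ZNF341, which drives expression of STAT3, moved from 3.21 ± 1.32 to 1.81 ± 0.290 CPM, or -0.82 on the log2 scale, and was kept in the same 2 fits. It did not pass with GC offsets (-0.38), with total counts (-0.57) or without the filter on low counts (-0.83). The untested members ZNF410 and ZNF746 had means of 0.587 and 0.480 CPM in Control cells.

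The largest fitted rises were in members of low level, named here after their values were seen. ZNF680 (chr7:64519878-64563075), a KRAB protein with 12 fingers, was at 0.811, 0.700, 0.610, 0.435 and 1.95 CPM in Control and at 8.11, 7.66, 6.85 and 7.11 CPM in Induced 1, 3, 4 and 5. Induced 2 was at 0.798 CPM, the level of Control 1. The log2 fold change was 2.73 (SE 0.57, adjusted p = 0.018, edgeR), from 93 tags in all Control and 516 in all Induced libraries. ZNF25 was at 0.233 to 0.724 CPM in Control 1 to 4 and 6.02 CPM in Control 5, and at 8.18 to 15.7 CPM in 4 Induced libraries and 1.83 CPM in Induced 2. Its log2 fold change of 2.49 (SE 0.81) became 4.48 without the pair. ZNF367 was at 3.33 to 9.13 CPM in Control 1 to 4 and 37.0 CPM in Control 5, and at 54.6 to 64.8 CPM in 4 Induced libraries and 15.3 CPM in Induced 2. Its log2 fold change was 1.96 (SE 0.61), and 3.12 without the pair. ZNF184, ZNF273 and ZNF487 showed the same arrangement, with log2 fold changes of 1.73, 1.74 and 1.75. ZNF680 and ZNF184 passed in all 10 fits that left out 1 library, ZNF367 in 3, and ZNF25, ZNF273 and ZNF487 in 2. With GC offsets ZNF25 and ZNF487 did not pass (adjusted p = 0.053 and 0.059, edgeR).

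The largest fitted fall was in ZNF892, from 2.42 ± 1.53 CPM in Control to 0.628 ± 0.327 CPM in Induced cells (SD, n = 5 each), a log2 fold change of -1.88 (SE 0.48, adjusted p = 0.018, edgeR) on 228 and 60 tags. ZNF692 (-1.07), ZNF408 (-1.03), ZNF668 (-1.002) and ZNF205 (-1.10) had log2 fold changes of about the same size. ZNF892 and ZNF692 passed in all 10 fits that left out 1 library, ZNF408 in 5 and ZNF205 in 3. With GC offsets ZNF692 was at -0.60 and passed, while ZNF408 (-0.54) and ZNF205 (-0.41) did not, and ZNF205 did not with total counts (-0.82). The values of ZNF322 and ZNF658, 2 of the called members, are uncertain because their 3′ ends have a near-identical copy elsewhere.

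By domain, members with and without a KRAB motif in their translated coding sequence differed in median. Of 100 members with the motif, 75 were tested, with 17 higher and 6 lower (22.7% and 8%, against 20% and 19.8% of all genes) and a median log2 fold change of 0.21. Of the 150 without it, 124 were tested, with 21 higher and 21 lower (16.9% each way) and a median of -0.01. The 203 KRAB genes among the ZNF genes of chromosome 19 had 122 tested, 20 higher and 5 lower (16.4% and 4.10%), and a median of 0.15. Per library, the median deviation of the KRAB members from their gene means ran from -0.15 to 0.01 in Control and from -0.02 to 0.14 in Induced libraries, so that the groups overlapped. The tested KRAB members had a median exon GC content of 44.1% and the others 47.8%. Under 45% GC, 31.0% of 42 KRAB members and 27.5% of 51 others were higher, 4.76% and 1.96% were lower, and the medians were 0.47 and 0.24. At 45% GC or more, 12.1% of 33 KRAB members and 9.59% of 73 others were higher, 12.1% and 27.4% were lower, and the medians were -0.15 and -0.18. The part of base composition in the difference between the 2 classes was not tested. Members with 0 to 4, 5 to 9 and 10 or more fingers had medians of 0.15, 0.00 and 0.07. Of the 13 tested members with a SCAN motif, a dimerization domain, 0 were higher and 2 lower (15.4%), against 20% and 19.8% of all genes.

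The partners through which KRAB proteins act also moved in both directions. Of 18 genes on that list 17 were tested, with 5 higher and 2 lower (29.4% and 11.8%, against 20% and 19.8% of all genes). TRIM28, the corepressor that binds the KRAB domain, was at 192, 209, 173, 185 and 108 CPM in Control and at 78.9, 119, 84.0, 81.6 and 119 CPM in Induced cells. Control 5 lay below Induced 2 and 5, and the log2 fold change was -0.84 (SE 0.21, adjusted p = 0.018, edgeR). CHD3, a remodeller of the NuRD complex, had a log2 fold change of -1.12. TASOR and MORC2, of the HUSH silencing pathway, had 1.43 and 1.96, CBX1, a heterochromatin protein, 1.03, and DNMT1, which copies DNA methylation, 1.20. ATF7IP, the fifth of the genes that rose and outside the rule for naming, had 1.12. SETDB1, the histone methyltransferase that TRIM28 recruits, had 0.52 and did not pass (adjusted p = 0.096, edgeR). With GC offsets TRIM28 was at -0.32 and CHD3 at -0.81, and neither passed (adjusted p = 0.10 and 0.060, edgeR). Of the 10 fits that left out 1 library, TRIM28, TASOR and CBX1 passed in all, MORC2 in 5, CHD3 in 3 and DNMT1 in 2. DNMT1 shares exon sequence with another gene on the same strand, and TASOR, MORC2 and SETDB1 with one on the opposite strand. Among other C2H2 genes, 7 of 12 tested KLF genes were higher and 1 lower (58.3% and 8.33%), and 8 and 3 of 35 ZBTB genes (22.9% and 8.57%). The counts were 4 and 4 of 15 ZFP genes (26.7% each way) and 4 and 5 of 19 ZSCAN and ZKSCAN genes (21.1% and 26.3%), against the same 20% and 19.8% of all genes.

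Base composition followed the direction of change in the members as in all genes. The members called higher had a median exon GC content of 42.1%, and those called lower 58.6%. Over all genes the medians were 42.6% and 55.9%. Spearman's correlation of exon GC content with the log2 fold change was -0.41 across the 199 members and -0.42 across 12922 genes, which are not independent replicates and share the same 10 libraries. Of 32 tested members under 40% GC, 11 were higher (34.4%, against 39.0% of all genes in that class) and 21 did not pass. Of 47 at 55% or more, 1 was higher, ZNF598, and 17 lower (36.2%, against 40.6% of all genes). ZNF384 and ZNF395, at 53.5% and 54.8% GC, and ZNF892, at 41.3%, moved against this trend. With a correction of each library for GC content, 23 members were higher (11.6%, against 13.1% of all genes) and 11 lower (5.53%, against 11.9%). Of the members called without it, 18 of 38 and 9 of 27 were called the same way with it. The GC-dependent part of the difference and a change in the cells cannot be told apart here.

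**Figure D3:**
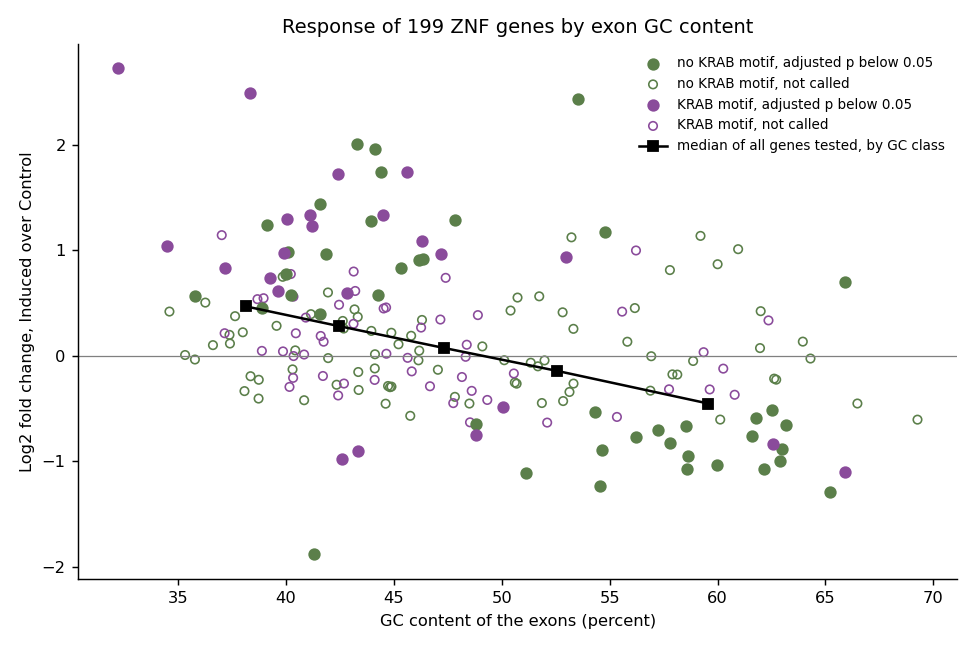
Log2 fold change of Induced over Control against the GC content of the exons for the 199 tested ZNF genes. Filled points passed at adjusted p below 0.05, purple points carry a KRAB motif, and black squares are the medians of all genes tested in 5 GC classes. The squares descend from 0.47 to -0.45, and most filled points under 45% GC lie above 0 and most above 55% lie below it.

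Neighbouring members moved alike in some arrays and apart in others. Members whose starts lay within 500 kb of the next formed 10 groups with at least 4 tested genes, which held 62 tested members. The array on chromosome 7 from ZNF722 to ZNF92 (chr7:63998849-65401136) had 11 members, all 6 tested ones with a KRAB motif. All 6 had positive log2 fold changes, from 1.04 to 2.73, and 5 passed the test. These were ZNF680, ZNF273, ZNF736, ZNF107 and ZNF92, while ZNF138 had 1.14 and an adjusted p of 0.071 with edgeR. In this array the median exon GC content was 38.5%, and of all genes tested under 40% GC 39.0% were higher. With GC offsets the median fell from 1.32 to 1.02 and 3 were called. In each of the named 5, Control 5 was the highest Control library and Induced 2 the lowest Induced library.

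A GC-rich array on chromosome 16 from ZNF48 to ZNF267 (median exon GC content 58.6%) had 12 tested members, 4 lower and 1 higher. Of all genes tested at 55% GC or more, 40.6% were lower and 6.52% higher. ZNF768, the most abundant of the 4, went from 84.2 to 53.6 CPM, and ZNF629, ZNF668 and ZNF48 had log2 fold changes of -0.70, -1.002 and -0.51. ZNF267, at 39.6% GC at the end of the same array, had 0.61. With GC offsets the median of this array went from -0.42 to 0.03. On chromosome 8 from ZNF251 to ZNF16, ZNF251 and ZNF250 were higher (0.94 and 0.97) while the other 4 tested genes were below 0 and did not pass. On chromosome 10 ZNF25 (2.49) lay beside ZNF33A (0.04), and on chromosome 12 ZNF605 (-0.97) and ZNF140 (1.23) moved in opposite directions.

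**Figure D4:**
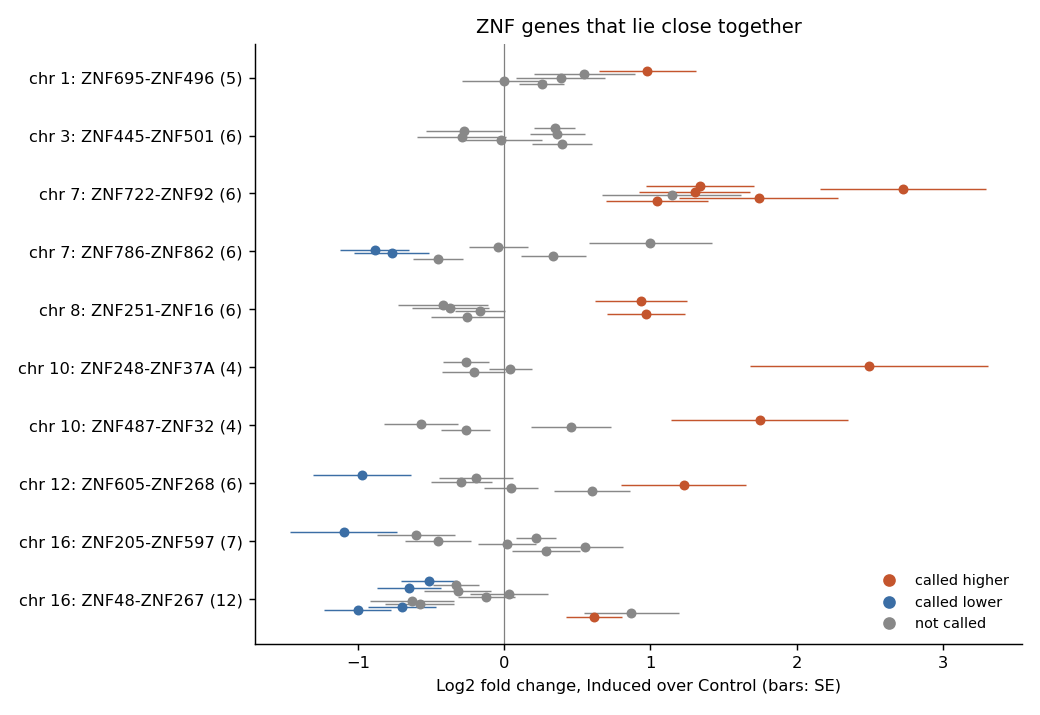
Log2 fold change of Induced over Control with its SE for the tested members of each of 10 genomic groups, with the number tested in parentheses. Red points were called higher, blue lower and grey not called. The chromosome 7 array from ZNF722 to ZNF92 lies wholly above 1, and the other groups span 0 or reach it.

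In parental cells 108 members were tested for doxycycline alone, and edgeR called 0 of them (0% of all 9124 genes were called). At an unadjusted p below 0.05 there were 2 (1.85%, against 2.93% of all genes), and DESeq2 called 0 as well. With 3 libraries a group and much lower depth than in the transgene line, changes could go uncalled, and not only small ones. The log2 difference was below 0 for 76 of the 108 (70.4%, against 50.8% of all genes), with a median of -0.20, against -0.01 for all genes. Without No Dox 1 the medians were -0.10 and 0.09. MALAT1, an RNA kept in the nucleus, was at 1278, 303 and 597 CPM in No Dox 1 to 3 and at 126, 123 and 118 CPM in With Dox 1 to 3 (log2 difference -2.57, unadjusted p = 0.00058, adjusted p = 1.0, edgeR). The part of nuclear RNA in the shift of the members was not tested. The members with the lowest p were ZNF609, ZNF462 and ZNF500. ZNF609 was at 111, 57.1 and 67.2 CPM without and 23.3, 45.1 and 21.5 CPM with doxycycline (log2 difference -1.38, SE 0.45, adjusted p = 1.0, edgeR). ZNF462 was at 52.8, 36.9 and 34.7 CPM without and 15.3, 22.5 and 8.74 CPM with it (log2 difference -1.39, SE 0.47, adjusted p = 1.0, edgeR). The 3 libraries of each group did not overlap for either gene. ZNF500 was at 23.9 ± 15.9 and 9.24 ± 7.19 CPM (SD, n = 3 each), with overlap. It was also called lower in Induced against Control, at -0.95 on the log2 scale. That call was kept in 2 of 10 fits that left out 1 library and was lost with GC offsets (-0.49).

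The parental libraries of a group also differed widely for ZNF316, ZNF367 and ZNF680, 3 members chosen after their values were seen. ZNF316 was at 38.0, 19.8 and 201 CPM in With Dox 1 to 3. ZNF367 was at 25.1, 99.5 and 10.3 CPM, and ZNF680 at 2.44, 9.33 and 0.795 CPM in the same libraries. With Dox 2 was thus high where With Dox 3 was low for ZNF367 and ZNF680, and the reverse for ZNF316. The ZNF680 value in With Dox 3 rests on about 1 tag, worth 0.679 CPM in that library before TMM scaling. It lies at the counting floor, so the spread of ZNF680 says less than that of ZNF316 and ZNF367.

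The response differed between the lines for 3 of 178 members tested (background 2.98% of 12265 genes). For ZNF462 the difference of the log2 fold changes was 2.07 (SE 0.40, adjusted p = 0.037, edgeR), with 0.90 in the clone and -1.39 in the parental cells. For ZNF281 it was 1.34 (SE 0.32, adjusted p = 0.043, edgeR), with 0.96 and -0.59. For ZNF346 it was -1.90 (SE 0.46, adjusted p = 0.043, edgeR), with -1.11 and 0.54. In all 3 the parental value had the opposite sign. With total counts ZNF346 did not pass (-1.22, adjusted p = 0.060, edgeR), and with GC offsets ZNF281 did not (1.11, adjusted p = 0.052, edgeR), while none of the 3 passed with edgeR's filterByExpr. Leaving out 1 library at a time gave 0 to 18 calls (0 to 9.94% of the members, against 0 to 18.9% of all genes). There were 0 calls without any one of Control 1, 2, 3 or 4, of Induced 1, 3, 4 or 5, of No Dox 1 or of With Dox 1 or 3. The lines were also sequenced at different sites and depths, so that line and sequencing cannot be told apart in the levels themselves.

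**Figure D5:**
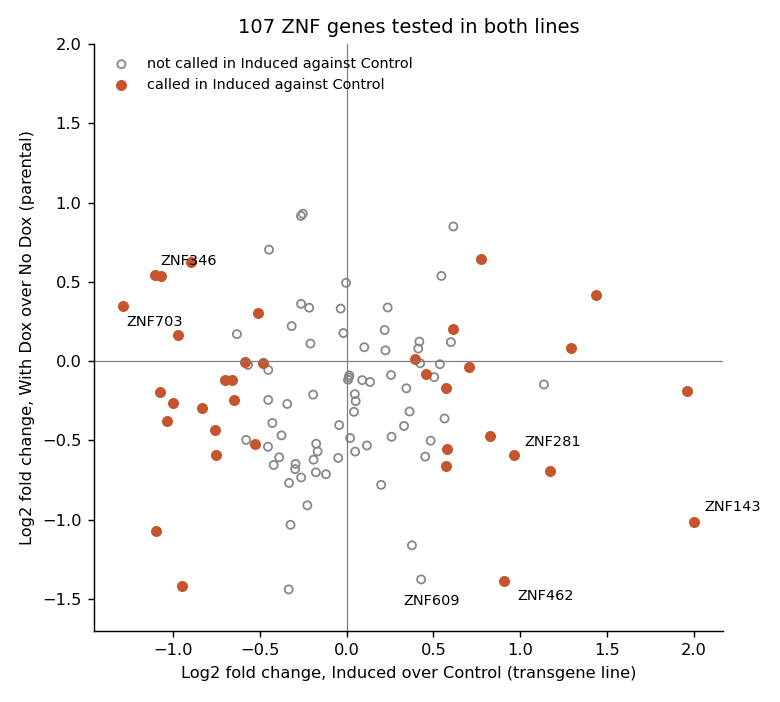
Log2 fold change with doxycycline in the parental line against that in the transgene line for the 107 ZNF genes tested in both. Red points were called in Induced against Control, and none was called in the parental line. ZNF462, ZNF281 and ZNF346 lie in quadrants of opposite sign.

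The transcription start of members was compared with the 5′ terminal oligopyrimidine form, a C followed by pyrimidines, in RefSeq promoters. Of 204 members with a promoter entry, 11 (5.39%) had a C followed by 4 pyrimidines at the listed start, against 4.04% of 27305 promoters. They included 2 of 31 matched members called higher and 2 of 24 called lower. The listed start is 1 position per gene, and a missing match says only that these letters are not there.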

How the data were processed

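Tag counts per gene were deposited by the authors for 16 libraries, made from cytoplasmic RNA with Lexogen QuantSeq REV and that maker's pipeline for human GRCh38. The aligner, annotation release, strand use and duplicate handling are not given in the sources used here. The files hold 60107 genes, 92 spike-in entries at 0 and 5 summary entries, and the latter were left out. The methods call the 5 transgene replicates biological, and the parental libraries came from separate cultures, 3 with and 3 without doxycycline. Genes with a mean normalized count above 20 were kept, following the methods. Each line was tested with edgeR 4.0.16 (TMM, quasi-likelihood, R 4.3.3), and the response of both lines by an interaction term over 16 libraries. Benjamini-Hochberg adjustment ran over all genes tested, with calls below 0.05. CPM are TMM-scaled. Tags without molecular identifiers are not independent molecules, so the limits given by tag counts cover counting error only. The steps were tested on simulated data.

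Gene places came from GENCODE release 44 (GRCh38), which matched 56104 entries. No protein table was used, so that fingers, KRAB and SCAN motifs were read from the translated canonical coding sequence, in place of RefSeq proteins as first planned. GC content was taken over all exons. Named genes were RNMT, called members whose groups did not overlap, the 4 most abundant, the 3 with the lowest parental p, members whose response differed between lines, called members of the role lists, and TRIM28 with up to 6 called partners; others are said to be chosen afterwards. The members and lists were chosen with earlier results of these data known. Alternatives were DESeq2 1.42.0, other scalings and filters, GC offsets, the replicate number as a block, 1 surrogate variable (sva 3.50.0), single libraries left out and, added after the data were seen, Control 5 and Induced 2 left out together.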

Additional observations from a re-analysis of the deposited data

Results flagged for a closer look

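In 80 groups of 5 libraries examined for the named genes, a library far from the other 4 was found 19 times, and chance flags about 1 in 20 groups. In 11 of them it was Control 5, above the other Control libraries. These were ZNF706 (33.2 CPM), ZNF143 (5.67 CPM), ZNF395 (47.0 CPM), ZNF680 (1.95 CPM), ZNF25 (6.02 CPM), ZNF367 (37.0 CPM), ZNF487 (4.98 CPM), ZNF273 (4.55 CPM), ZNF184 (3.03 CPM) and the partner genes MORC2 (22.8 CPM) and DNMT1 (114 CPM). In 7 it was Induced 2, above the other Induced libraries for ZNF346 (73.5 CPM), ZNF703 (203 CPM), ZNF593 (80.6 CPM) and ZNF408 (16.7 CPM) and below them for ZNF680 (0.798 CPM), ZNF367 (15.3 CPM) and DNMT1 (62.9 CPM). In each of these 18 the library lay toward the other group of its line. The remaining one was ZNF407 in Induced 4 (4.41 CPM).

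The test of a different response between the lines passed for ZNF462 (difference of log2 fold changes 2.07), ZNF281 (1.34) and ZNF346 (-1.90). The difference of a response between a clone and its parental line, read on different instruments, has 1 clone behind it.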

How the results depend on the processing

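Of the counts of members, those with DESeq2 size factors and with DESeq2's Wald test stayed within 1.5 times in Induced against Control. Total-count scaling gave 68 higher, 11 lower and 8 with a different response between the lines. GC offsets gave 23, 11 and 5, and GC offsets with the replicate block 11 lower. With 1 surrogate variable the counts were 0, 0 and 19. Without Control 5 and Induced 2 they were 65, 52 and 23. For the difference between the lines, edgeR's filterByExpr gave 0 (31 at an unadjusted p below 0.05) and DESeq2 gave 11. Leaving out 1 library gave 8 to 63 higher, 7 to 44 lower, 0 in the parental line and 0 to 18 between the lines. In Induced against Control and between the lines, the shares of all genes called moved with these settings too. The cause was not tested. Of the single genes, ZNF106 turned sign with total counts (0.13), with 1 surrogate variable (0.27) and without Control 3 (0.0234; its range over single libraries left out was -0.24 to 0.0234), and ZNF205 with 1 surrogate variable (0.0022).

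Deviations of same-numbered libraries correlated from -0.37 to 0.63 for Control and Induced and from -0.42 to 0.24 for the parental samples. Libraries with different numbers were not compared, so these values do not settle whether the replicate numbers pair the samples. With the replicate block, 38 members were higher (19.1%, against 22.5% of all genes) and 23 lower (11.6%, against 17.3%). There were 0 called in the parental line and 2 between the lines (1.12%, against 1.81%). Of the named members, the block ended the calls of ZNF639 (adjusted p = 0.080), ZNF205 (0.096) and ZNF500 (0.083) in Induced against Control, and of ZNF281 (0.061) and ZNF346 (0.053) between the lines.

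Depth limits the parental line most. Before TMM scaling, 1 tag is worth up to 0.679 CPM there, against at most 0.080 CPM in the transgene line. The levels given above are TMM-scaled, so the worth of 1 tag in them differs from these values. Members at about 1 CPM rest on few tags.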
